A study of Mus musculus with 4 samples.

Results

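The ligands, receptors and signal transducers of the TGF-β pathway were measured as mRNA in cultured mouse articular chondrocytes that lacked either the miR-23a/b clusters or miR-26a. The 10 genes described are the rows with the symbols Tgfb1, Tgfb2, Tgfb3, Tgfbr1, Tgfbr2, Tgfbr3, Smad2, Smad3, Smad7 and Tgfbi, out of 55450 genes in the count table, and all 10 were found in both the count and the TPM tables. They were listed by name and not by their values. The cells were isolated from femoral head cartilage at the age of 3 weeks and sequenced from the 3′ ends of their mRNAs, with 1 library for each of 4 conditions. The wild-type library came from C57BL/6 mice. The Cart-miR-23clus KO library, here called the cluster knockout, came from C57BL/6 mice with flox/flox alleles of the miR-23a/b clusters and Col2a1-cre, so that deletion follows the Col2a1 promoter of cartilage cells. The miR-26a KO library (C57BL/6, genotype miR-26a -/-) is called the miR-26a knockout, and the mimic library, of the same genotype but labelled C57BL6/J, was transfected with a miR-26a mimic in culture. The labels and the study's account of its comparison call the reference library wild type, whereas the methods give Control chondrocytes and name floxed mice as Control, so the genotype behind each ratio to it is uncertain. Whether the miR-26a knockout cells received a control transfection is not given in the sources used here.

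TGF-β is secreted in a latent complex and, once released, binds the type II receptor, which recruits and phosphorylates the type I receptor. The type I receptor then phosphorylates Smad2 and Smad3, which enter the nucleus with Smad4, while Smad7 is induced by the signal and blocks the receptor. In articular cartilage the pathway is known for maintaining the matrix and for holding back chondrocyte hypertrophy.

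The deleted miRNAs fall into seed families, the seed being the bases from 2 to 8 that pair with a target. The mature sequences are shown with the seed in capitals, because the seed defines the sites sought in the 10 genes. They were taken from RefSeq (GRCm38.p6), which matched 5 of the 6 miRNAs looked up, all but mmu-miR-23b-3p. miR-27a and miR-27b share a seed, and miR-24-3p is made from both clusters.
mmu-miR-23a-3p (chr8:84208563-84208583, plus strand): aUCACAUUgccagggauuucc
mmu-miR-27a-3p (chr8:84208727-84208747, plus strand): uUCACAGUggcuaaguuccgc
mmu-miR-27b-3p (chr13:63300760-63300780, plus strand): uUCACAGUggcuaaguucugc
mmu-miR-24-3p (chr8:84208875-84208896 and chr13:63301251-63301272, plus strand): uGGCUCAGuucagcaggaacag
mmu-miR-26a-5p (chr9:119031811-119031832 and chr10:126995543-126995564, plus strand): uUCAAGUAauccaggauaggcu

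The longest annotated 3′ UTR of each gene (GENCODE, GRCm38, the build of the files) was searched on the mRNA strand for AATGTGA (miR-23), ACTGTGA (miR-27), CTGAGCC (miR-24) and TACTTGA (miR-26a). A match is a description of the letters and not a site shown to be used. Of the 10 genes, 5 held a match for miR-23, 4 for miR-27, 3 for miR-24 and 0 for miR-26a, whereas of 20674 genes with a 3′ UTR of at least 50 bases 15.3%, 16.3%, 16.5% and 9.83% did. The 3 receptors held 9 of the 15 matches. The 3 ligand genes and Smad7 held 0. UTR length differed widely, from 135 bases in Tgfb1 to 6233 in Smad2, and the share with a match is higher among genes with long UTRs. Of 654 genes with a UTR from 0.8 to 1.25 times as long as that of Tgfbr2 (6085 bases), 46.8% held a miR-23 match and 47.7% a miR-27 match. For Tgfbr3 (3069 bases) 31.1% of 2389 such genes held a miR-23 match. Among the genes with a match Tgfbi had the shortest UTR, of 601 bases, and at such a length 6.19% of 2390 genes held a miR-23 match and 9.16% a miR-24 match, while Tgfbi held 1 of each. Smad3 held 1 match for miR-23 and 1 for miR-27, and Smad2 1 for miR-23 and 1 for miR-24. Of genes with UTRs of like length, 34.3% and 34.5% held these matches for Smad3 and 48% and 43.6% for Smad2. The receptor matches are shown in capitals within the surrounding UTR, because among the genes with at least 20 reads in the cluster knockout and wild type together the receptors gave the largest ratios between these libraries.
Tgfbr1 miR-27 (chr4:47412339-47412345, plus strand): tcctttttatcACTGTGAtcat
Tgfbr2 miR-23, at UTR base 2557 (chr9:116087815-116087821, minus strand): attcaaataggAATGTGAatga
Tgfbr2 miR-23, at UTR base 5982 (chr9:116084390-116084396, minus strand): aactactgtagAATGTGAcctg
Tgfbr2 miR-27 (chr9:116087570-116087576, minus strand): ccatgagtagtACTGTGAgcgc
Tgfbr2 miR-24, at UTR base 3629 (chr9:116086743-116086749, minus strand): gcctagcctaaCTGAGCCccag
Tgfbr2 miR-24, at UTR base 3873 (chr9:116086499-116086505, minus strand): gtggtctgttcCTGAGCCcctg
Tgfbr3 miR-23, at UTR base 186 (chr5:107109447-107109453, minus strand): cggcccacgtaAATGTGAccct
Tgfbr3 miR-23, at UTR base 264 (chr5:107109369-107109375, minus strand): atgggggtttcAATGTGAaaca
Tgfbr3 miR-27 (chr5:107107816-107107822, minus strand): taatttcagttACTGTGAattc

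**Figure D1:**
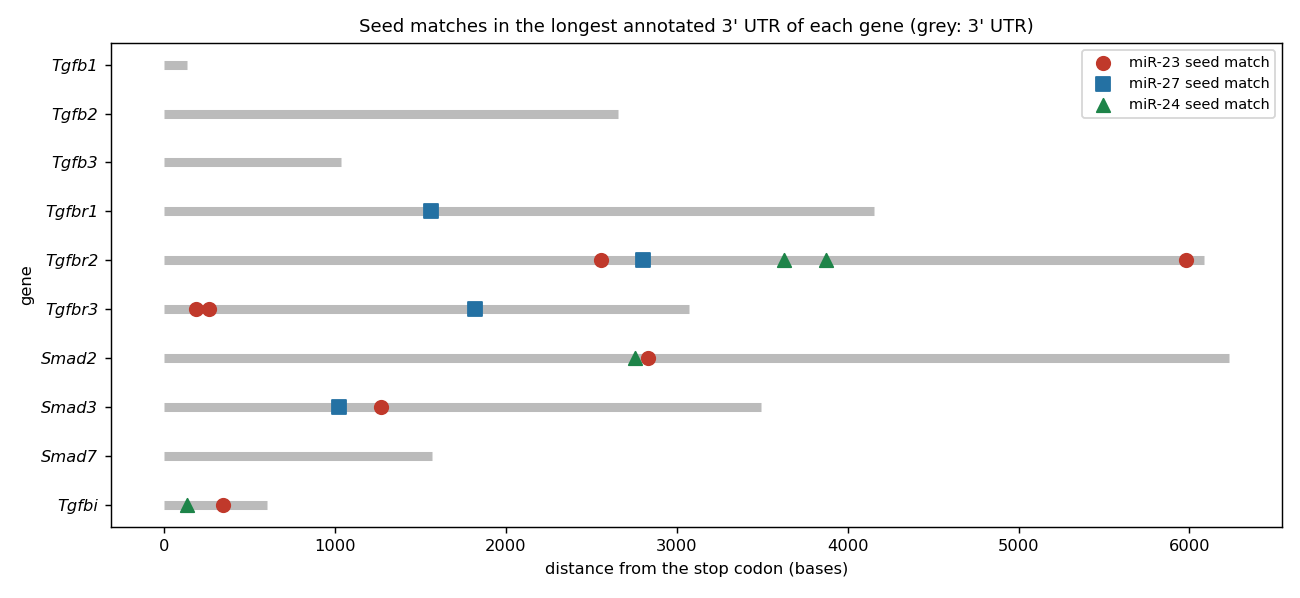
Position of each seed match in the longest annotated 3′ UTR, as the distance in bases from the stop codon, for the 10 genes (grey lines, drawn to the length of the UTR). Circles mark miR-23, squares miR-27 and triangles miR-24. Tgfbr2 holds 5 matches, the 3 ligand genes and Smad7 hold 0, and no miR-26a match was found in the 10 genes.

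The libraries held from 1336496 to 1505805 reads on genes, and 0 reads for a gene allow it up to 0.000199% to 0.000224% of them. Reads are given as deposited for 3 libraries and as recovered from the TPM steps for the mimic library. TPM is reads per gene length, scaled to the same sum in each library, and RPM is reads per 1000000 reads on genes. Ratios are of TPM, and each stands with an exact 95% Clopper-Pearson interval on the reads, with library totals as the offset. With that offset a ratio of the cluster knockout to wild type comes out 1.02 times as large as in TPM. Intervals and limits cover counting error only. They compare these libraries and not the conditions, because 1 library per condition leaves no spread between replicates to test against. Cultured chondrocytes are a bulk sample, in which fewer cells of a type and less RNA per cell cannot be told apart. All 9 chondrocyte markers, such as Col2a1 and Acan, had reads in all 4 libraries, and they summed to 34161 RPM in wild type, 27485 in the cluster knockout, 26290 in the miR-26a knockout and 26904 with the mimic.

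The order of levels within a library was led by the ligand Tgfb2 in all 4. In wild type the TPM ran in the order Tgfb2 (93.4), Tgfb3 (33.7), Tgfbr2 (32.5), Smad3 (19.7), Tgfb1 (11.4), Tgfbr3 (8.02), Tgfbi (5.74), Smad2 (3.43), Tgfbr1 (3.33) and Smad7 (0.224). Counting intervals of neighbours in this order overlapped in 6 of 9 pairs. They were separate between Tgfb2 and Tgfb3, between Tgfbr2 and Smad3, and between Tgfbr1 and Smad7. In the cluster knockout Tgfbr2 came 6th, with Smad3, Tgfbr3, Tgfb1 and Tgfbr2 (16.8, 15.8, 14.1 and 12.1 TPM) following each other with overlapping intervals. Reads from 3′ ends do not grow with gene length, so levels of different genes in TPM are only a guide, and by RPM Tgfbr2 came 2nd in wild type and 3rd in the cluster knockout.

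**Figure D2:**
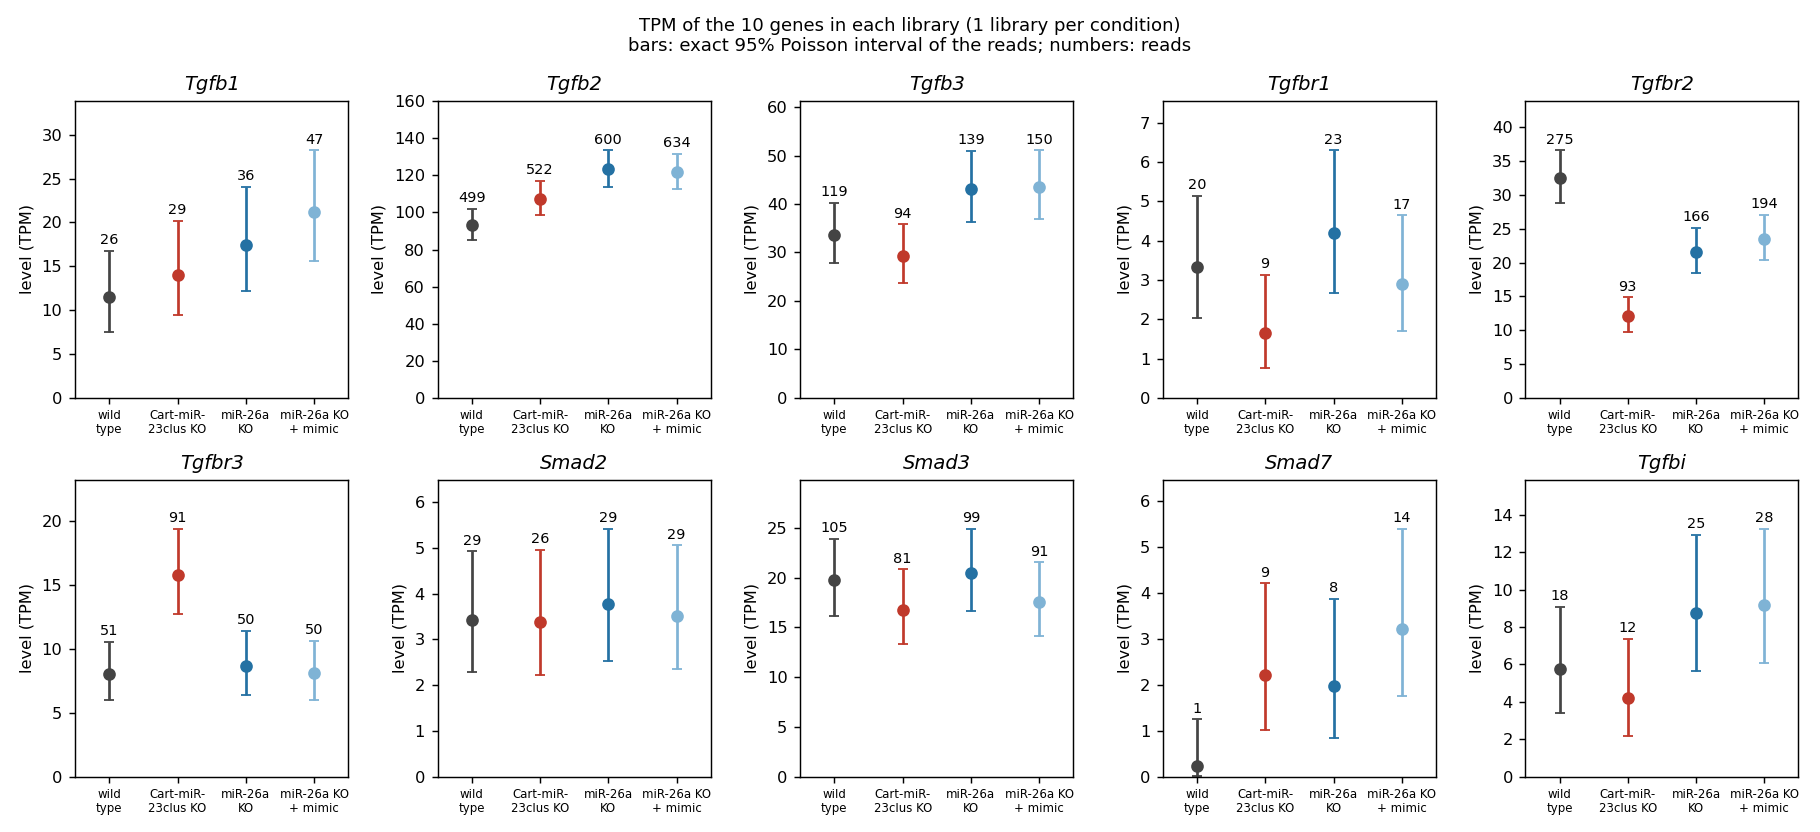
Level in TPM of the 10 genes in the 4 libraries, 1 point per library (Cart-miR-23clus KO is the cluster knockout), with the exact 95% Poisson interval of its reads as bars and the number of reads above. Each panel has its own axis from 0. Tgfbr2 lies at 32.5 TPM in wild type and 12.1 in the cluster knockout, and Tgfbr3 at 15.8 in the cluster knockout against 8.02 to 8.63 in the other 3 libraries.

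Of the ligands, Tgfb2 was higher beyond counting error in the miR-26a knockout than in wild type, and with the mimic the 95% intervals of all 3 ligands lay above 1, of which the interval at 99% still did for Tgfb2 (1.13 to 1.54) and not for Tgfb1 (0.981 to 3.70) or Tgfb3 (0.944 to 1.81). Tgfb2 was the ligand with most reads in each culture. Tgfb2 (ENSMUSG00000039239, GRCm38 chr1:186622792-186705989, minus strand), the isoform with most reads here, had 499 reads in wild type, 522 in the cluster knockout, 600 in the miR-26a knockout and 634 with the mimic. This is 93.4, 108, 123 and 122 TPM, with wild type lowest and the miR-26a knockout libraries close to each other. The TPM ratio to wild type was 1.32 (1.17 to 1.49) in the miR-26a knockout and 1.15 (1.04 to 1.34) in the cluster knockout. Tgfb3 (ENSMUSG00000021253, chr12:86056745-86079041, minus strand), a ligand that binds the type II receptor with high affinity, had 119, 94, 139 and 150 reads in the same order of libraries. Its level was lowest in the cluster knockout (29.3 TPM) and highest in the miR-26a knockout libraries (43.2 and 43.5 TPM), with 33.7 TPM in wild type. Its ratio was 1.28 (0.998 to 1.65) for the miR-26a knockout over wild type and 0.678 (0.528 to 0.907) for the cluster knockout over the miR-26a knockout. The 3′ UTR of Tgfb3 overlaps Ttll5 on the other strand, which had 7, 16, 11 and 13 reads, and whether the counting used strand is not given in the sources used here. Tgfb1 (ENSMUSG00000002603, chr7:25687002-25705077, plus strand), the best studied TGF-β isoform, had the fewest ligand reads, with 26, 29, 36 and 47. Its TPM was lowest in wild type (11.4) and highest with the mimic (21.2), a ratio of 1.86 (1.13 to 3.14). For the miR-26a knockout over wild type the ratio was 1.52, and its interval of 0.894 to 2.63 included 1.

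The make-up of ligand reads differed little between libraries. Tgfb2 took 77.5% of the 644 ligand reads in wild type (exact 95% Clopper-Pearson interval 74.1% to 80.7%), 80.9% of 645 in the cluster knockout (77.7% to 83.9%), 77.4% of 775 in the miR-26a knockout (74.3% to 80.3%) and 76.3% of 831 with the mimic (73.3% to 79.1%). The intervals of all 4 libraries overlapped. The sum of ligand reads was 428, 483, 566 and 573 RPM in wild type, the cluster knockout, the miR-26a knockout and the mimic library.

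The receptors gave the largest differences between the cluster knockout and wild type among the genes that passed the filter of 20 reads in the 2 libraries together. Tgfbr2 (ENSMUSG00000032440, chr9:116084293-116175360, minus strand), the type II receptor that binds the ligand, was lower in the cluster knockout than in each of the other libraries. It had 275 reads in wild type, 93 in the cluster knockout, 166 in the miR-26a knockout and 194 with the mimic, or 32.5, 12.1, 21.6 and 23.5 TPM. Wild type was highest, the miR-26a knockout libraries lay between, and their intervals did not reach those of wild type or of the cluster knockout. The TPM ratio to wild type was 0.372 (0.298 to 0.484) in the cluster knockout, 0.663 (0.544 to 0.807) in the miR-26a knockout and 0.724 (0.604 to 0.880) with the mimic. With the miR-26a knockout as the reference instead, the ratio of the cluster knockout was 0.562 (0.441 to 0.745), which is no longer below 0.5.

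Tgfbr1 (ENSMUSG00000007613, chr4:47353222-47414931, plus strand), the type I receptor kinase, had few reads, with 20 in wild type, 9 in the cluster knockout, 23 in the miR-26a knockout and 17 with the mimic. Its TPM was lowest in the cluster knockout (1.65) and from 2.90 to 4.20 in the other 3. The ratio of the cluster knockout to wild type was 0.496 (0.203 to 1.17), so a difference was not detectable at this depth, and by RPM the ratio was 0.507. Over the miR-26a knockout the ratio of the cluster knockout was 0.392 (0.163 to 0.900), which excluded 1, while the interval at 99% (0.122 to 1.12) did not. Tgfbr3 (ENSMUSG00000029287, chr5:107106570-107289629, minus strand) encodes betaglycan, the co-receptor that presents ligand, TGF-β2 in particular, to the type II receptor. It was the receptor that was higher in the cluster knockout, with 91 reads against 51 in wild type and 50 in each of the miR-26a knockout libraries. These are 15.8 TPM against 8.02, 8.63 and 8.07, and the interval of the cluster knockout did not overlap those of the other 3. The ratio was 1.97 (1.41 to 2.89) to wild type and 1.83 (1.31 to 2.69) to the miR-26a knockout, and by RPM the ratio to wild type was 2.01. The level in the miR-26a knockout was within counting error of wild type, with a ratio of 1.08 (0.715 to 1.62).

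Within a library, a comparison of receptors does not depend on the library's scaling. Tgfbr2 had 5.39 times the reads of Tgfbr3 in wild type (3.99 to 7.42), 3.32 times in the miR-26a knockout (2.41 to 4.65) and 3.88 times with the mimic (2.83 to 5.41). In the cluster knockout the reads were close to equal, at 1.02 times (0.757 to 1.38), and that interval lay below those of the other 3. Against Tgfbr1 the cluster knockout did not stand apart. Tgfbr2 had 13.8 times the reads of Tgfbr1 in wild type (8.73 to 22.9) and 10.3 times in the cluster knockout (5.22 to 23.3). It had 7.22 times in the miR-26a knockout (4.65 to 11.7) and 11.4 times with the mimic (6.95 to 20.0), and all these intervals overlapped. Tgfbr2 took 79.5% of 346 receptor reads in wild type (74.8% to 83.6%) and 48.2% of 193 in the cluster knockout (41.0% to 55.5%). Its share was 69.5% of 239 in the miR-26a knockout (63.2% to 75.2%) and 74.3% of 261 with the mimic (68.6% to 79.5%). Tgfbr3 took 47.2% in the cluster knockout (39.9% to 54.5%) and from 14.7% to 20.9% elsewhere.

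**Figure D3:**
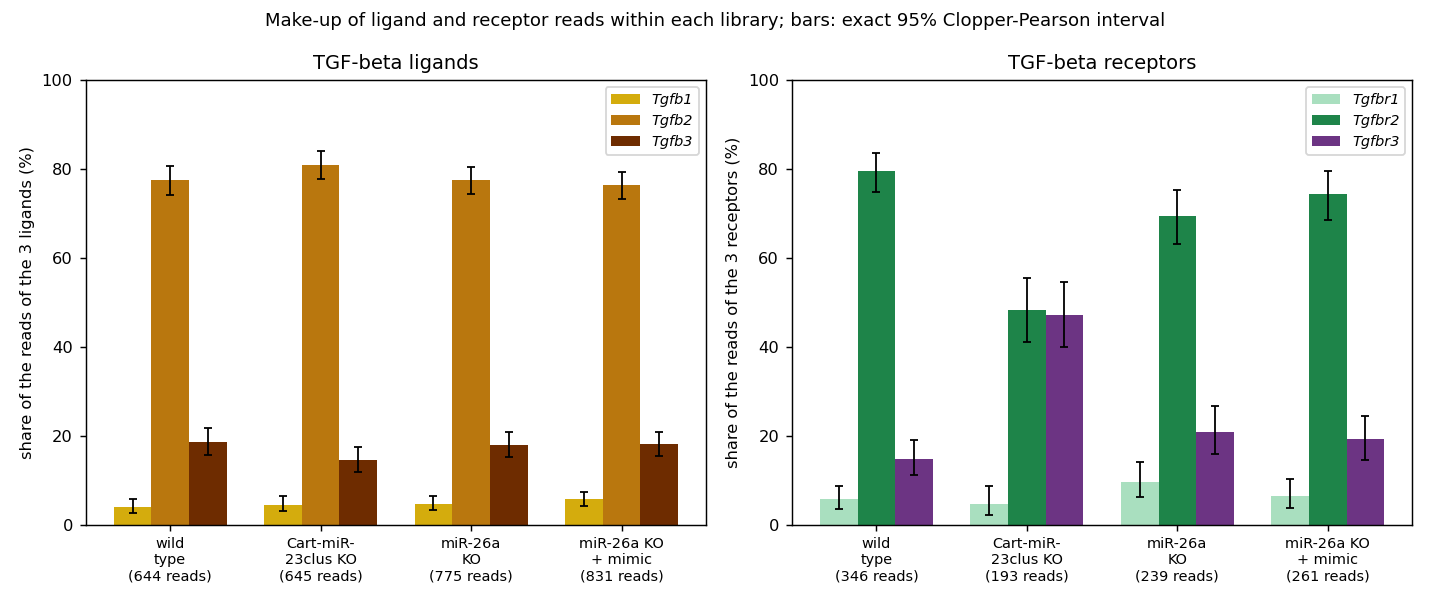
Share in percent of the reads of the 3 ligands (left) and the 3 receptors (right) taken by each gene, in each of the 4 libraries, with exact 95% Clopper-Pearson intervals as error bars and the summed reads under each library. Tgfb2 holds from 76.3% to 80.9% of ligand reads, while Tgfbr2 holds 79.5% of receptor reads in wild type and 48.2% in the cluster knockout.

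The sum of the osteoblast markers was in the same order across libraries as Tgfbr2. The 8 markers summed to 33961 RPM in wild type, 6896 in the cluster knockout, 15747 in the miR-26a knockout and 18283 with the mimic, most of it Col1a1 and Ibsp. Reads were found for 7 of the 8 in wild type and for 5 of the 8 in the cluster knockout, where Dmp1 and Ifitm5 were at 0. Phex was at 0 in the 3 libraries with deposited reads. Not each marker followed the order of the sum. Bglap was at 213.2 TPM in wild type and 216.5 with the mimic, and Dmp1 had 1 read in the miR-26a knockout and 0 with the mimic. Tgfbr2 itself was at 183, 69.6, 121 and 134 RPM. The sum of the chondrocyte markers, mostly Col2a1, was also highest in wild type, whereas Comp (169 TPM in wild type, 287 in the cluster knockout) and Matn3 (36.5 and 50.4 TPM) were highest in the cluster knockout. The part of osteoblast-lineage cells or of chondrocytes in the Tgfbr2 result was not tested. The 3 smooth muscle markers, mostly Acta2, were highest in the cluster knockout at 453 RPM against 215 to 284, as Tgfbr3 was, with Myh11 at 0 in all 4, and their part was not tested. The 12 macrophage markers ran from 291 RPM in the miR-26a knockout to 982 in the cluster knockout, and the 4 adipocyte markers from 43.8 in wild type to 178 in the cluster knockout. The 5 endothelial markers had 1 read or fewer in the 3 libraries with deposited reads, and the 6 fibroblast markers summed to 70.4 to 112 RPM.

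The Smads that carry the signal varied least. Smad3 (ENSMUSG00000032402, chr9:63646767-63757994, minus strand) had 105, 81, 99 and 91 reads, and its highest level, 20.4 TPM in the miR-26a knockout, was 1.22 times its lowest, 16.8 TPM in the cluster knockout. Smad2 (ENSMUSG00000024563, chromosome 18), its partner, had 29, 26, 29 and 29 reads, or 3.43, 3.39, 3.77 and 3.52 TPM, the narrowest range of the 10 genes at 1.11-fold. Intervals overlapped among all 4 libraries for both genes. The ratio of the cluster knockout to wild type for Smad2 was 0.987, with an interval of 0.572 to 1.78 that leaves room for a change in either direction. Smad3 had more reads than Smad2 in each library, by 3.62 times in wild type (2.38 to 5.67), 3.12 times in the cluster knockout (1.98 to 5.05), 3.41 times in the miR-26a knockout (2.24 to 5.36) and 3.14 times with the mimic (2.05 to 4.95). For Smad3 the counting interval of the ratio of the cluster knockout to wild type ran from 0.642 to 1.17.

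Smad7 (ENSMUSG00000025880, chromosome 18), the inhibitory Smad, had the widest range but few reads, with 1 in wild type, 9 in the cluster knockout, 8 in the miR-26a knockout and 14 with the mimic. Wild type, at 0.224 TPM, was lowest and the other 3 were at 1.97 to 3.21 TPM, but its counting interval, up to 1.25 TPM, overlapped those of the cluster knockout and the miR-26a knockout. The ratio to wild type was 9.91 (1.41 to 444) in the cluster knockout and 8.79 (1.18 to 390) in the miR-26a knockout, both resting on the 1 wild-type read and both under 20 reads together, so that Smad7 was left out of the counts of these comparisons. With 0.5 TPM added to both libraries these ratios were 3.75 and 3.41. At an interval level of 99% both intervals included 1. With the mimic the ratio to wild type was 14.4 (2.20 to 612) on 14 and 1 reads, its interval at 99% (1.54 to 3094) excluded 1, and its TPM interval, from 1.76, did not reach that of wild type. Without wild type the range was narrower, at 1.64-fold between the mimic library and the miR-26a knockout, and the ratio of the cluster knockout to the miR-26a knockout was 1.13 (0.395 to 3.44). Over 3823 genes with 50 reads or more in every library, those with the smallest Euclidean distance to the pattern of Smad7 over the 4 libraries, on log2(TPM + 0.5) centred per gene, were S100a6 (0.43), Timp1 (0.63), Prg4 (0.66), Lox (0.73) and Mt1 (0.76). All 5 were lowest in wild type, which the choice by likeness to Smad7 favours and which for Smad7 rests on 1 read, such as S100a6 with 755 reads there and 2184, 2584 and 2816 in the others. For Tgfbr2, a choice made after its values were seen, the nearest were Ptprd (0.09), Creb3l1 (0.20), Cspg4 (0.21), Raph1 (0.24) and Pdlim2 (0.26). Ptprd, a receptor tyrosine phosphatase, had 268, 93, 158 and 178 reads, beside the 275, 93, 166 and 194 of Tgfbr2. A like pattern is what the choice by smallest distance selects for.

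Tgfbi (ENSMUSG00000035493, chr13:56609523-56639562, plus strand) encodes an extracellular matrix protein named for its induction by TGF-β. It had 18, 12, 25 and 28 reads, or 5.74, 4.21, 8.75 and 9.16 TPM, with the cluster knockout lowest and the miR-26a knockout libraries highest. The ratio to wild type was 0.734 (0.330 to 1.65) in the cluster knockout and 1.53 (0.800 to 2.97) in the miR-26a knockout. Neither difference was detectable at this depth. The ratio between the cluster knockout and the miR-26a knockout was 0.481 (0.225 to 1.02).

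**Figure D4:**
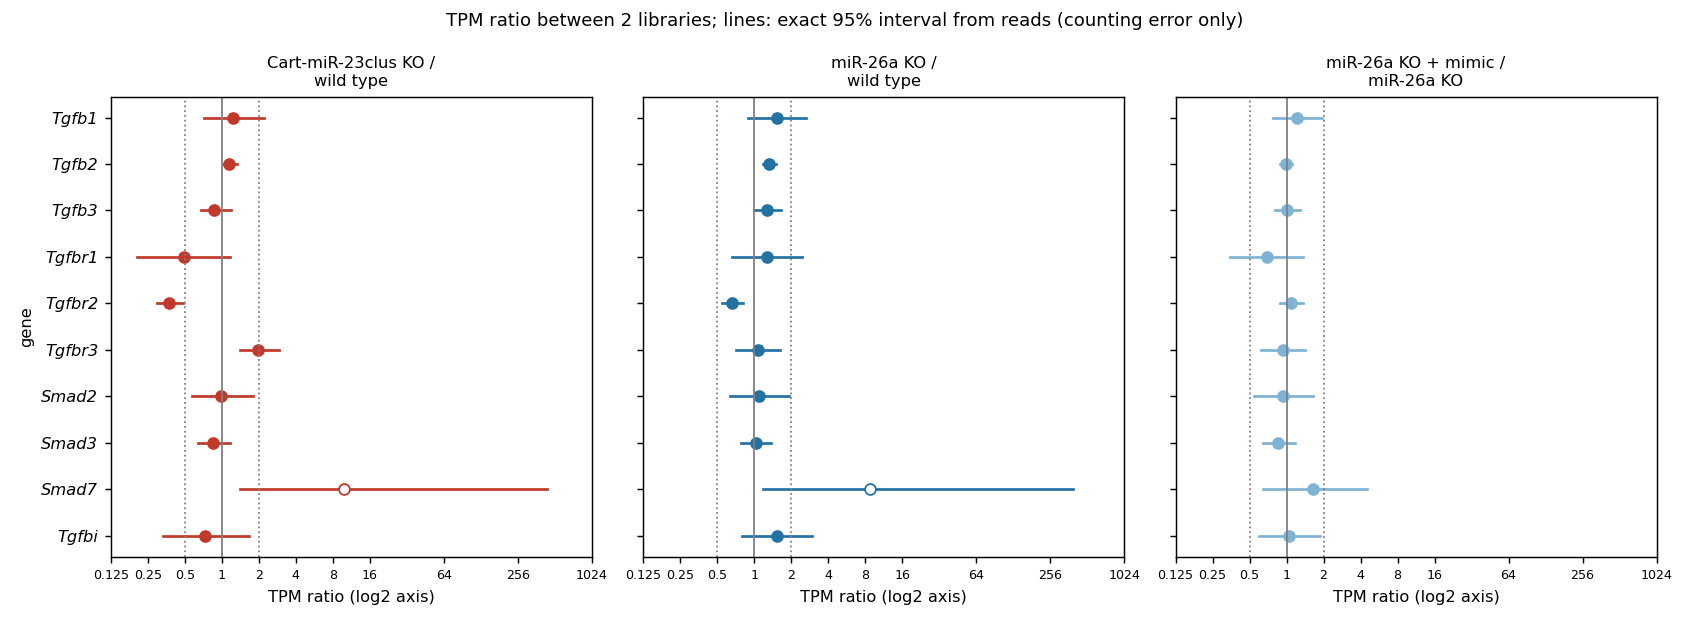
TPM ratio of the 10 genes in 3 comparisons of libraries, on a log2 axis, with exact 95% intervals from reads (lines). Solid vertical lines mark 1 and dotted lines 0.5 and 2, and open circles mark genes with fewer than 20 reads in the 2 libraries together. Tgfbr2 lies at 0.372 in the left panel, and in the right panel every interval includes 1.

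Counted over the genes with at least 20 reads together, 2 of 9 members had a TPM ratio of the cluster knockout to wild type below 0.5 (Tgfbr1 and Tgfbr2), against 4.38% of 9573 genes, and 0 of 9 had one above 2, against 4.73%. The interval excluded 1 for 3 of 9 (Tgfb2 and Tgfbr3 above, Tgfbr2 below), against 23.8% of all genes. The median log2 ratio of the 9 was -0.20, beside -0.02 over all genes. For the miR-26a knockout over wild type, 0 of 9 were past 2-fold in either direction, against 7.38% of 9545 genes, and the interval excluded 1 for 2 of 9 (Tgfb2 above, Tgfbr2 below), against 19.7%. A total of 8 of 9 were higher, against 52.6% of all genes, and Tgfbr2 was the exception. The median log2 ratio was 0.34 beside 0.02. Both comparisons share the wild-type library.

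The mimic library and the miR-26a knockout share a genotype and differ in the labels by the transfection and by the strain name, C57BL6/J against C57BL/6. With the mimic, 0 of 10 members were past 2-fold from the miR-26a knockout, against 3.35% of 9471 genes, and the interval excluded 1 for 0 of 10, against 10.2%. The widest ratios were 1.64 for Smad7 (0.644 to 4.53), on 14 and 8 reads, and 0.691 for Tgfbr1 (0.349 to 1.36). For Tgfb2, the gene with most reads, the ratio was 0.987 (0.887 to 1.11), and for Tgfbr2 it was 1.09 (0.889 to 1.36). With wild type as the reference instead, the mimic library had 0 of 9 past 2-fold, against 6.59% of 9638 genes, and intervals excluding 1 for 4 of 9, against 18.5%: Tgfb1, Tgfb2 and Tgfb3 above and Tgfbr2 below. Between the cluster knockout and the miR-26a knockout, 2 of 9 were below 0.5 (Tgfbr1 and Tgfbi), against 3.43% of 9453 genes.

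The other genes of the pathway were taken from lists of 77 genes, and 63 had at least 20 reads together in the cluster knockout and wild type. Of these, 9 were above 2, against 4.73% of all genes, and 5 below 0.5, against 4.38%, with a median log2 ratio of -0.06 beside -0.02 over all genes. In the miR-26a knockout over wild type 8 of 64 were above 2, against 3.88% of all genes, and 4 were below 0.5, against 3.5%. The interval excluded 1 for 29 of 63 in the cluster knockout, against 23.8% of all genes, and for 29 of 64 in the miR-26a knockout, against 19.7%. Whether an interval excludes 1 depends on reads, and the lists hold genes with very many. Timp3 is one, at 1.04 (1.04 to 1.09) in the cluster knockout on 14905 and 15794 reads. Genes of like depth were not compared, so these shares do not show a larger response of the pathway. The list for latency and activation of TGF-β takes in the Ltbp family by name, and binding of latent TGF-β was not measured. In the cluster knockout 1 of 9 was above (Ltbp2) and 1 of 9 below. In the miR-26a knockout 2 of 9 were above (Ltbp2 and Ltbp1) and 1 of 9 below. Ltbp2, a matrix protein of the latent TGF-β binding protein family, had 6 reads in wild type, 73 in the cluster knockout, 75 in the miR-26a knockout and 72 with the mimic, so that wild type stood apart. Its ratio to wild type was 13.4 (6.00 to 38.6) in the cluster knockout and 13.7 (6.03 to 38.6) in the miR-26a knockout. Ltbp1, of the same family, had 31 reads in wild type, 35 in the cluster knockout and 63 in the miR-26a knockout, the last at a ratio of 2.23 (1.43 to 3.55). Nrros, which tethers latent TGF-β on myeloid cells, had 35 reads in wild type and 14 in each of the knockout libraries without the mimic, with ratios of 0.440 (0.224 to 0.859) and 0.439 (0.219 to 0.838). With the mimic Nrros had 11 reads. The macrophage markers were at 853 RPM in wild type, 982 in the cluster knockout, 291 in the miR-26a knockout and 542 with the mimic. The part of macrophages in the Nrros ratios was not tested.

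Among regulators of the receptors, 1 of 12 was below 0.5 and 1 of 12 above 2 in the cluster knockout, against 4.38% and 4.73% of all genes, and in the miR-26a knockout 1 of 12 was below and 0 above, against 3.5% and 3.88%. Bambi, a decoy receptor without a kinase domain, had 100 reads in wild type, 16 in the cluster knockout, 27 in the miR-26a knockout and 38 with the mimic. The ratio to wild type was 0.176 (0.0992 to 0.307) in the cluster knockout and 0.297 (0.186 to 0.458) in the miR-26a knockout. Eng, a co-receptor related to betaglycan, was at 2.10 (0.991 to 4.94) on 21 and 11 reads. In the activin branch 2 of 5 were below 0.5, against the same 4.38%, which were Fst, an activin antagonist, at 0.481 (0.312 to 0.760) on 31 and 71 reads and the ligand Gdf11 at 0.419 (0.164 to 1.01) on 8 and 21 reads. In the miR-26a knockout 0 of 6 genes of this branch passed 2-fold, against 7.38%, with a median log2 ratio of -0.09.

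Of the other Smads 0 of 5 passed 2-fold in the cluster knockout, against 9.11% of all genes. Smad4, the common partner, had 68 reads in wild type and 46 in the cluster knockout, a ratio of 0.745 (0.513 to 1.12). In the miR-26a knockout 2 of 5 were above 2, against 3.88%, with Smad6, an inhibitory Smad, at 2.04 (1.33 to 3.17) on 65 and 35 reads and Smad9, of the BMP branch, at 2.20 (1.06 to 4.82) on 24 and 12 reads. Among nuclear co-regulators 1 of 7 was above 2 and 0 below 0.5 in the cluster knockout, against 4.73% and 4.38% of all genes, and 1 of 7 above and 1 of 7 below in the miR-26a knockout, against 3.88% and 3.5%. Ep300, a histone acetyltransferase that acts with Smads, had a ratio of 2.20 (1.38 to 3.76) in the cluster knockout. In the miR-26a knockout Pmepa1, a TGF-β target that dampens the signal, was at 2.10 (1.54 to 2.88) and Skil, a repressor of Smad complexes, at 0.353 (0.147 to 0.770) on 9 and 28 reads. Of the 4 proteoglycans that bind TGF-β, 0 passed 2-fold in the cluster knockout, against 9.11% of all genes, and 0 in the miR-26a knockout, against 7.38%. The intervals of Dcn, Bgn and Fmod, all with many reads, excluded 1 in both comparisons, and that of Aspn included 1 in both. Dcn was at 0.751 (0.726 to 0.812) in the cluster knockout and 1.21 (1.15 to 1.27) in the miR-26a knockout.

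Of the TGF-β target genes, 6 of 21 were above 2 and 1 of 21 below 0.5 in the cluster knockout, against 4.73% and 4.38% of all genes, with a median log2 ratio of 0.08 beside -0.02. In the miR-26a knockout 3 of 21 were above 2 and 1 below, against 3.88% and 3.5%, with a median of 0.25 beside 0.02. Lox, which cross-links collagen, had 1211 reads in wild type, 4416 in the cluster knockout, 4198 in the miR-26a knockout and 3620 with the mimic, with ratios to wild type of 4.02 (3.86 to 4.38) in the cluster knockout and 3.81 (3.57 to 4.07) in the miR-26a knockout. Prg4, the lubricating proteoglycan of the joint surface, had a ratio to wild type of 2.16 (1.73 to 2.84) in the cluster knockout and 3.36 (2.68 to 4.25) in the miR-26a knockout. Postn, a matrix protein of the periosteum, had 10 reads in wild type, 24 in the cluster knockout and 28 in the miR-26a knockout, with ratios of 2.64 (1.25 to 6.34) and 3.08 (1.45 to 7.10). Tagln, an actin-binding protein, went from 3 reads in wild type to 37 in the cluster knockout, at 13.6 (4.40 to 70.4), where the smooth muscle markers were also highest. Col1a1, also in the osteoblast list, had 39203 reads in wild type and 7378 in the cluster knockout, a ratio of 0.207 (0.207 to 0.217). Over the whole list, 12 of 21 target genes were higher than in wild type in the cluster knockout, against 48.5% of all genes. In the miR-26a knockout 12 of 21 were higher, against 52.6%, so the target genes did not share a direction. With the mimic, 0 of 63 genes of the lists passed 2-fold from the miR-26a knockout in either direction, against 3.35% of all genes, while the interval excluded 1 for 13 of 63, against 10.2%. Depth bears on this share too, as with Fn1 at 1.03 (1.02 to 1.06) on 20318 and 18401 reads.

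**Figure D5:**
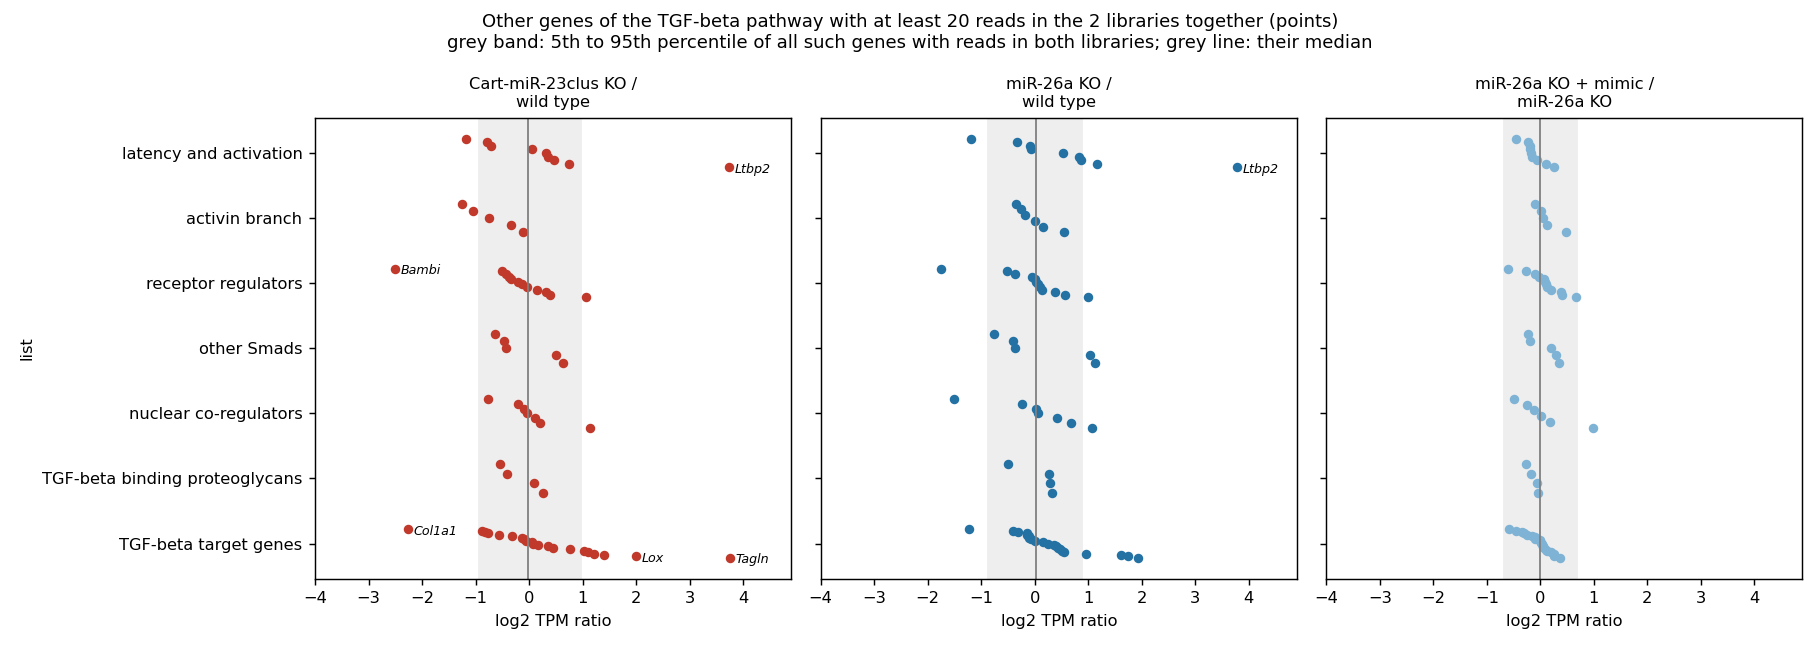
log2 TPM ratio of the other pathway genes with at least 20 reads in the 2 libraries together (1 point per gene), by list, in 3 comparisons. The grey band spans the 5th to 95th percentile of all such genes with reads in both libraries, from -0.94 to 0.98 in the left panel, and genes beyond 2 on the log2 scale are named. Ltbp2 lies far above the band in both comparisons with wild type, and Bambi below it.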

How the data were processed

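RNA of 1 chondrocyte culture per condition was made into QuantSeq 3′ libraries, read as single-end reads of 75 bases and mapped to mm10 by the authors without quality filtering. The aligner, counter and annotation are not given in the sources used here. The deposited estimated counts are whole reads per gene of 3 libraries, without normalization. The deposited TPM of all 4 libraries were made by the authors from reads divided by the length of the gene, with an equal sum in each library. Mimic reads were recovered from TPM steps: 14429 of 14429 values tested were whole within 0.01, 588 genes were not recovered, and the sum was 1449246. Comparisons with the mimic use totals over recovered genes.

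A ratio was counted above 2 or below 0.5 among genes with at least 20 reads in the 2 libraries together. Pathway genes are named if past 2-fold in a comparison, at most the 3 with the largest change per list, some with their values in other comparisons, and 1 target gene is not reported here and is left out of the lists. Smad4 and the genes most like Tgfbr2 were chosen after their values were seen. The members and lists were chosen with earlier results of these data known, and some list genes are also cell type markers. The calculation of the intervals was tested on simulated reads with counting error alone. Alternatives were RPM, edgeR's TMM, DESeq2's size factors, 0.5 TPM added, other filters, an interval of 99% and other comparison libraries. Gene positions and UTRs came from GENCODE and miRNAs from RefSeq. R 4.3.3 with edgeR 4.0.16 and DESeq2 1.42.0 gave the scaling factors, and Python 3.11.15 with pandas 2.3.3, scipy 1.17.1, numpy 2.4.6 and matplotlib 3.10.9 gave the rest.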

Additional observations from a re-analysis of the deposited data

How the results depend on the processing

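Of 140 TPM ratios of members recomputed under another scaling, with 0.5 TPM added or with another comparison library, 133 stayed within the counting interval of the reported ratio. The other 7 left it, all of them with another comparison library. Among the 7, Tgfb2 in the cluster knockout turned from 1.15 over wild type to 0.872 over the miR-26a knockout, and Tgfbr2 with the mimic from 1.09 over the miR-26a knockout to 0.724 over wild type. Another scaling changes all ratios of a comparison by the same small factor, so those values could hardly leave their intervals. Wide intervals also hide large moves, such as Smad7 in the cluster knockout over wild type, from 9.91 to 3.75 with 0.5 TPM added. The tally is therefore no measure of robustness. Members above 2 in the cluster knockout over wild type numbered 1 by RPM (Tgfbr3) and 1 with TPM above 0 in both libraries (Smad7), instead of 0. Members below 0.5 numbered 1 by RPM, 1 with 0.5 TPM added and 1 with at least 20 reads in each library, instead of 2, and Tgfbr2 was the one left. Members above 2 in the miR-26a knockout over wild type numbered 1 with TPM above 0 in both libraries (Smad7). For the pathway lists in the cluster knockout over wild type, at least 20 reads in each library gave 5 above 2 instead of 9 and 2 below 0.5 instead of 5, and TPM above 0 in both gave 8 below. In the miR-26a knockout over wild type the same filters gave 2 and 8 below instead of 4, and the first gave 5 above 2 instead of 8. With the mimic over the miR-26a knockout, pathway genes above 2 numbered 1 by TMM and 3 with TPM above 0 in both, and 1 was then below 0.5, instead of 0. By RPM, 29 of 40 ranks of members changed. On the TPM scale the intervals of Tgfb2 (0.774 to 0.982) and Tgfbi (0.220 to 0.994) in the cluster knockout over the miR-26a knockout also excluded 1. No paired analysis was possible because no condition has more than 1 library. Depth limits Tgfbr1, Smad2, Smad7 and Tgfbi most, each with under 30 reads per library.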
